A study of Homo sapiens with 14 samples.

Results

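Long intergenic noncoding RNAs (lincRNAs) are transcripts that lie between protein-coding genes and code for no known protein. The expressed lincRNAs described here are the Ensembl genes of the count table that GENCODE 29 types as lincRNA and that reached at least 1 CPM (read counts scaled to a common library total) in at least 3 of 14 libraries. The rule kept 104 genes of 1042 lincRNA genes and of 18006 genes in all, and it used no comparison between groups. Of the 938 lincRNA genes left out, 465 had no read in any library. The third-highest CPM of the members nearest the limit was 1.04 for LINC00667 and LINC00941 and 1.05 for AP003086.1. On the other side, AL445623.2, AC008393.1 and AL031283.1 stopped at 0.995, 0.993 and 0.993 CPM.

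The RNA came from HEK 293, a human embryonic kidney cell line, and was sequenced from libraries made with a stranded mRNA kit. There were 3 control libraries, whose genotype the labels give as wild type, 2 libraries after siRNA knockdown of CFIm25 and 3 after siRNA knockdown of CFIm68. There were also 3 libraries with CFIm25 overexpression and 3 with CFIm68 overexpression. Nothing in the labels states what the control cells were transfected with, which promoter drove the transgenes or whether the overexpressing lines were clones. Separate cultures are not stated for the libraries of a group either, and each p-value therefore rests on a spread that may be technical.

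Most lincRNAs are made by RNA polymerase II, capped, spliced and polyadenylated like messenger RNAs, and many remain in the nucleus, where the RNA exosome removes those that are not processed efficiently. CFIm25 (gene NUDT21) and CFIm68 (gene CPSF6) are subunits of cleavage factor I, a complex that binds the RNA motif UGUA upstream of poly(A) sites and takes part in choosing which site is used. Some lincRNAs act near their own gene, some carry small RNAs in their introns or exons, and for many no function is known.

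The labels matched the targeted genes. NUDT21 was at 52.9 and 54.6 CPM in the CFIm25 knockdown libraries and at 500.4 to 537 CPM in the controls, and it reached 671 to 782 CPM in the CFIm25 overexpression libraries. CPSF6 was at 40.5 to 42.5 CPM in the CFIm68 knockdown libraries, 262 to 274 CPM in the controls and 717 to 750 CPM in the CFIm68 overexpression libraries. The subunits also moved with each other: NUDT21 was at 224 to 242 CPM after CFIm68 knockdown, and CPSF6 at 526 to 540 CPM after CFIm25 knockdown. Library totals ran from 15822467 to 33895308 counts, so 1 CPM stood for 15.8 reads in the shallowest and 33.9 reads in the deepest library. The 6 genes fixed as HEK 293 markers summed to 788 to 1181 CPM. PAX2, NEFL, INA and VIM had a mean of at least 1 CPM in each group. NEFM did so in no group, and LHX1 only with CFIm68 overexpression. The 5 blood markers summed to at most 0.348 CPM, the 5 epithelial markers to at most 14.2 CPM, nearly all from KRT17 (the only one at 1 CPM or more), and the 5 mesenchymal markers to 25.0 to 68.2 CPM with COL1A2 and DCN at 0 in each group. The mesenchymal sum was 50.5 to 54.8 CPM in the controls and 65.5 to 68.2 CPM after CFIm68 knockdown. With CFIm68 overexpression it was 25.0 to 28.4 CPM. The epithelial sum was 4.05 to 4.48 CPM in the controls and 9.67 to 14.2 CPM after CFIm68 knockdown. With CFIm25 overexpression it was 10.3 to 13.3 CPM.

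The expressed lincRNAs were mostly sequenced at low depth. Their median over the 14 libraries was 2.48 CPM, against 28.1 CPM for the tested protein-coding genes (reads, not divided by length). Of the 104, 60 reached 1 CPM in all 14 libraries, and 11 did so in only 3 to 5. A mean of at least 10 CPM was reached by 19 members, 37 lay between 2 and 10 CPM and 48 below 2 CPM. The median coefficient of variation between libraries of a group was 14.4%. All 104 had annotated introns, 24 of them with 2 exons at most, and their median exonic length was 3058 bases. Exonic bases were shared with another gene on the same strand by 23 members and with a gene on the opposite strand by 39. No source used here says how the counts treated strand, so for the latter the reads of both genes cannot be told apart. In 39 members the first base lay within 2000 bases of the start of a protein-coding gene on the other strand (head to head). For 1 member no values are given here.

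Letters at the annotated 3′ end of a few members are printed for the lincRNAs that the comparisons turn on. Each window is 30 bases of the longest annotated transcript, sense strand, GRCh38 (GENCODE 29). Capitals mark the poly(A) signal AATAAA in the first 4 and the CFIm motif TGTA in the last 3. In LINC01422 the TGTA ends the annotated transcript, and in RAB30-AS1 it lies close to that end. Whether a cleavage factor binds at any of these letters was not tested.
SNHG15 (chr7:44983030-44983059, minus strand): caagggatatttAATAAAtatggatttaaa
EPB41L4A-AS1 (chr5:112164241-112164270, plus strand): gaactttatatgAATAAAaatatatgcagt
IQCH-AS1 (chr15:67403629-67403658, minus strand): ctcctaaatgaaAATAAAtacccccgactg
RBFADN (chr18:80070726-80070755, plus strand): gttagatattggAATAAAgagagttgctcc
RAB30-AS1 (chr11:83073939-83073968, plus strand): tttataatatatttctttaTGTAagccata
DNAJC3-DT (chr13:95672905-95672934, minus strand): aaaatTGTAggttatttgagtttttaaaat
LINC01422 (chr22:26865757-26865786, plus strand): attttttatgttagctccttatctgaTGTA

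In 7 members the annotation places a microRNA on the same strand. RefSeq (GRCh38.p14) gave 19 mature sequences for them, with 19 different seeds. Of MIR374A in FTX only the 3p arm (hsa-miR-374a-3p) was found. Arms missing from the 19 were not compared, so a seed shared with one of them is not excluded. The matures of the 5 hosts on the fixed microRNA-host list are shown by 1 arm for each host (for FTX, 2 of its matures), with the seed (bases 2 to 8) in capitals. The count table holds the host genes, and mature microRNAs were not measured in it.
hsa-miR-34a-5p (in MIR34AHG): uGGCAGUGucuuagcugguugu
hsa-miR-22-3p (in MIR22HG): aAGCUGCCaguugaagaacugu
hsa-miR-9-5p (in LINC00461): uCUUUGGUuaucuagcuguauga
hsa-miR-503-5p (in MIR503HG): uAGCAGCGggaacaguucugcag
hsa-miR-374b-5p (in FTX): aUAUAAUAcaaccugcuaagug
hsa-miR-421 (in FTX): aUCAACAGacauuaauugggcgc

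lincRNAs fell more often than they rose after CFIm68 knockdown, and rose more often than they fell when CFIm25 was overexpressed. Changes were tested with edgeR over 12080 genes, and a gene was counted as higher or lower at an adjusted p under 0.05. After CFIm25 knockdown 23 members were higher and 23 lower (44.2% called, against 47.6% of all tested genes). After CFIm68 knockdown 18 were higher and 33 lower (49.0% called, against 56.4%), while 28.3% of all tested genes were higher and 28.1% lower. With CFIm25 overexpression 37 were higher and 17 lower (51.9% called, against 56.7%), where 27.7% of all genes were higher and 29.1% lower. CFIm68 overexpression gave the fewest calls against control, 19 higher and 9 lower (26.9%, against 29.8% of all tested genes). Over all read levels, the members' share of calls was thus near or below that of all tested genes in each comparison with control. By read level this did not always hold. Under 2 CPM, 37.5%, 45.8%, 45.8% and 14.6% of the members were called in CFIm25 knockdown, CFIm68 knockdown, CFIm25 overexpression and CFIm68 overexpression. All tested genes under 2 CPM had 25.4%, 33.3%, 32.8% and 16.5%. From 10 CPM up the members had 52.6%, 57.9%, 73.7% and 47.4%, against 54.1%, 63.2%, 63.3% and 34.3%. The split by direction also differed. The median log2 change of the members was 0.27 in CFIm25 overexpression and -0.08 in CFIm68 knockdown, where the medians over all tested genes were -0.00 and 0.00. The difference between lincRNAs and other genes was not tested.

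**Figure D1:**
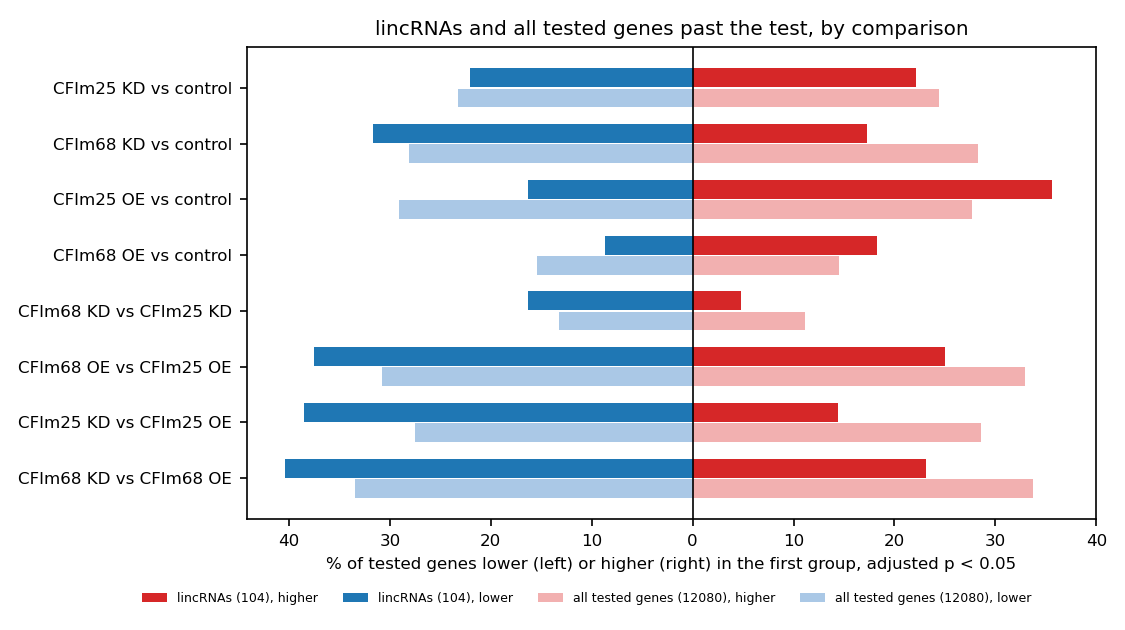
Share of expressed lincRNAs (dark bars, 104 genes) and of all tested genes (pale bars, 12080 genes) that were lower (blue, left) or higher (red, right) in the first group of each of 8 comparisons, in percent at an edgeR adjusted p under 0.05. With CFIm25 overexpression 35.6% of the lincRNAs were higher and 16.3% lower. After CFIm68 knockdown 17.3% were higher and 31.7% lower.

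The median size of the log2 change was larger for lincRNAs than for all tested genes, and the gap differed by read level and comparison. The median size, whatever the direction, was 0.42, 0.39, 0.50 and 0.28 for the members in CFIm25 knockdown, CFIm68 knockdown, CFIm25 overexpression and CFIm68 overexpression, and 0.23, 0.25, 0.27 and 0.15 for all tested genes. After CFIm25 knockdown it was 0.53 against 0.51 under 2 CPM, 0.31 against 0.30 from 2 to 10 CPM and 0.27 against 0.19 from 10 CPM up. After CFIm68 knockdown the same 3 levels gave 0.54 against 0.52, 0.39 against 0.31 and 0.29 against 0.22. With CFIm25 overexpression they gave 0.60 against 0.51, 0.43 against 0.35 and 0.57 against 0.22, and with CFIm68 overexpression 0.33 against 0.41, 0.29 against 0.21 and 0.23 against 0.13. Under 2 CPM the gap was thus small in the knockdowns, larger with CFIm25 overexpression and reversed with CFIm68 overexpression. It was widest from 10 CPM up with CFIm25 overexpression, a level with 19 members. Low genes of all kinds were also more often higher than lower with CFIm25 overexpression (356 higher and 179 lower of 1633 under 2 CPM, where the members had 15 and 7). From 10 CPM up, all tested genes had 2351 higher and 2893 lower in that comparison, and the members 11 and 3. Of the 104 members, 82 passed the test in at least 1 of the 4 comparisons with control (78.8%, against 85.6% of all tested genes) and 10 passed it in all 4 (9.62%, against 9.89%). The comparisons share the 3 control libraries, so they are given side by side.

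Several lincRNAs fell by about 1 or more on the log2 scale in both knockdowns, and some of these rose in an overexpression group. DNAJC3-DT is transcribed away from the gene of the endoplasmic reticulum chaperone DNAJC3, and its values were 7.09, 6.45 and 6.27 CPM in the controls. It was at 3.22 and 2.64 CPM after CFIm25 knockdown, at 2.15, 1.77 and 1.94 CPM after CFIm68 knockdown, and at 10.9, 10.9 and 11.9 CPM with CFIm68 overexpression. The groups did not overlap, with the knockdowns lowest and CFIm68 overexpression highest. DNAJC3-DT fell by 1.19 ± 0.16 on the log2 scale (SE; edgeR adjusted p = 7.3e-07) after CFIm25 knockdown and by 1.75 ± 0.15 (edgeR adjusted p = 1.6e-10) after CFIm68 knockdown, and rose by 0.77 ± 0.12 (edgeR adjusted p = 2.9e-05) with CFIm68 overexpression. With CFIm25 overexpression its log2 change was 0.29 ± 0.13 (edgeR adjusted p = 0.052), and that value passed the test narrowly with other size factors or filters (0.30, adjusted p = 0.049 with RLE), without control replicate 1 (0.35, adjusted p = 0.048), without CFIm25 overexpression replicate 2 (0.35, adjusted p = 0.034) and without its replicate 3 (0.39, adjusted p = 0.017).

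RBFADN lies beside the ribosome-binding factor gene RBFA, and the annotation has 663 of its exonic bases shared on the same strand with the gene AC090360.1. Control values were 5.73, 6.99 and 7.26 CPM, against 3.09 and 2.61 CPM after CFIm25 knockdown and 1.77, 2.14 and 2.14 CPM after CFIm68 knockdown. All 5 knockdown libraries were below all 3 controls, and the log2 falls were 1.25 ± 0.16 and 1.73 ± 0.16 (edgeR adjusted p = 5.3e-07 and 2.5e-10). The log2 change was 0.22 ± 0.13 with CFIm25 overexpression (edgeR adjusted p = 0.15) and 0.52 ± 0.13 with CFIm68 overexpression (edgeR adjusted p = 0.0029), in the latter with 7.93, 11.1 and 9.60 CPM.

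IQCH-AS1 runs antisense to IQCH and had more reads than either of these, at 19.1, 20.1 and 18.1 CPM in the controls. It fell to 10.3 and 9.10 CPM after CFIm25 knockdown and to 9.58, 9.09 and 8.78 CPM after CFIm68 knockdown, and it rose to 31.1, 27.9 and 32.4 CPM with CFIm25 overexpression. The 2 knockdowns overlapped each other, and both were below the controls, which were below CFIm25 overexpression. The log2 changes were -0.99 ± 0.10, -1.06 ± 0.09 and 0.67 ± 0.08 (edgeR adjusted p = 5.0e-09, 6.6e-11 and 5.2e-08). With CFIm68 overexpression it rose by 0.25 ± 0.08 on the log2 scale (edgeR adjusted p = 0.023), a call that did not hold without control replicate 1 or 3, without CFIm68 overexpression replicate 1 or 2, or once the median of the 50 neighbouring genes was removed (log2 change 0.15 to 0.25 across these). IQCH-AS1 shares 444 exonic bases with genes on the other strand.

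**Figure D2:**
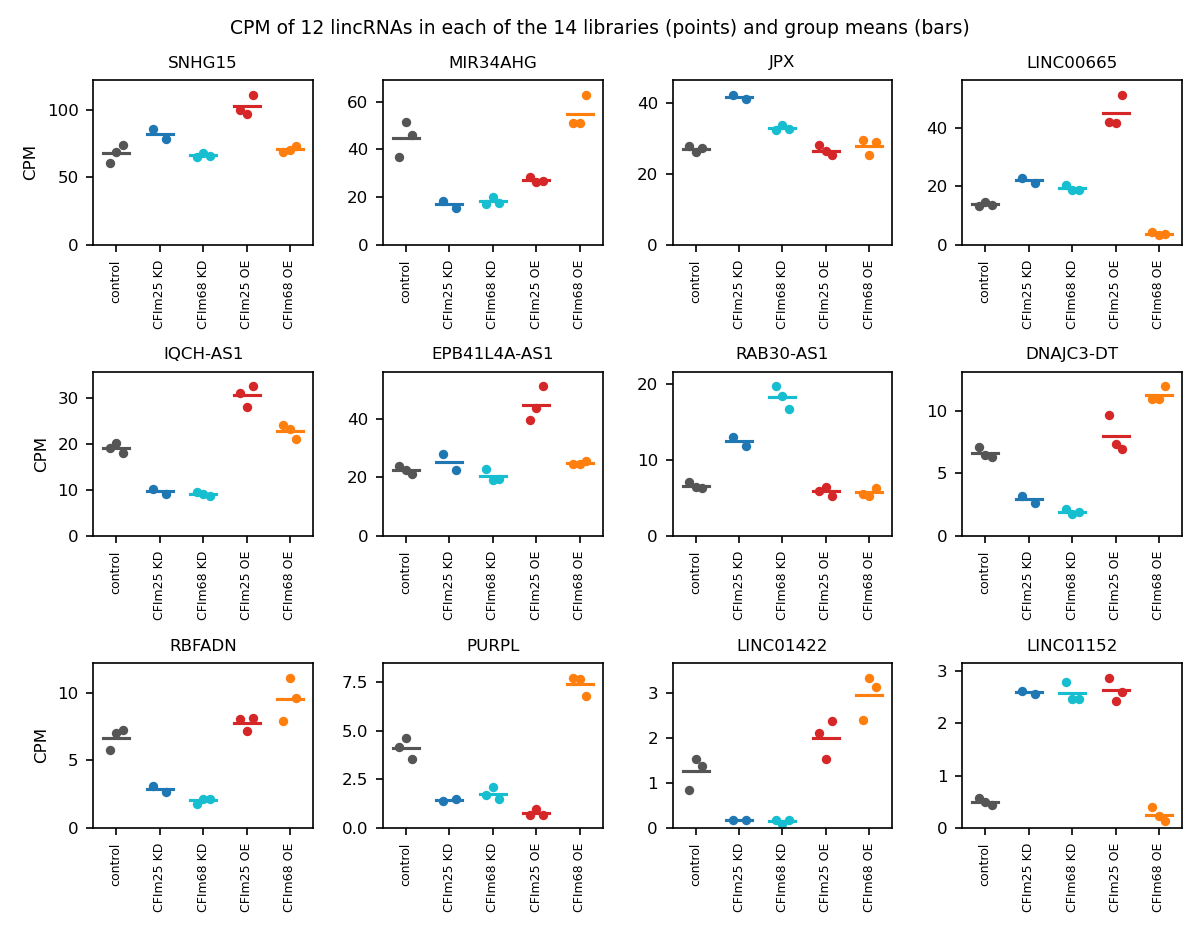
CPM of 12 lincRNAs in each library (points) with the group mean (bar), by group on the horizontal axis; KD is knockdown and OE overexpression, and each panel has its own vertical axis from 0. IQCH-AS1, DNAJC3-DT, RBFADN and LINC01422 were low in both knockdowns and LINC00665 and PURPL moved in opposite directions in the 2 overexpression groups.

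Members with few reads include some that met the expression rule only through libraries where they were high, so that lower values elsewhere were favoured by the rule. Their values are given as a description. LINC01422, named here after its values were seen, was at 0.851, 1.53 and 1.39 CPM in the controls and at or below 0.182 CPM in all 5 knockdown libraries. It reached 2.40, 3.34 and 3.14 CPM with CFIm68 overexpression. It met the rule in 8 libraries, none of them a knockdown. Its log2 changes were -2.76 ± 0.42 and -3.11 ± 0.40 in the CFIm25 and CFIm68 knockdowns and 1.24 ± 0.23 with CFIm68 overexpression. RNF139-AS1, head to head with the ubiquitin ligase gene RNF139 and also named after its values were seen, was at 1.82, 1.20 and 2.0 CPM in the controls. It was at 0.272 and 0.299 CPM after CFIm25 knockdown and between 0.405 and 0.511 CPM after CFIm68 knockdown, with log2 changes of -2.51 ± 0.34 and -1.85 ± 0.28. It met the rule only in the 6 control and CFIm68 overexpression libraries. Its log2 change was -1.10 ± 0.27 with CFIm25 overexpression and 0.87 ± 0.21 with CFIm68 overexpression. LINC01801, chosen after its values were seen, had log2 changes of -2.33, -1.84 and -2.25 in CFIm25 knockdown, CFIm68 knockdown and CFIm25 overexpression. Its control values were 1.30, 2.08 and 1.33 CPM, and it met the expression rule in 6 libraries, those of the control and CFIm68 overexpression groups.

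A smaller set of lincRNAs rose in both knockdowns. RAB30-AS1, head to head with the gene of the small GTPase RAB30, was at 7.09, 6.50 and 6.38 CPM in the controls. It was at 13 and 11.9 CPM after CFIm25 knockdown and at 19.7, 18.5 and 16.8 CPM after CFIm68 knockdown, with no overlap between the 3 groups. RAB30-AS1 rose by 0.90 ± 0.11 and 1.46 ± 0.10 on the log2 scale (edgeR adjusted p = 2.9e-07 and 1.1e-12), and the difference between the knockdowns was 0.56 ± 0.10 (edgeR adjusted p = 9.8e-05). In the overexpression groups it changed by -0.17 and -0.21 and did not pass the test (edgeR adjusted p = 0.23 and 0.22).

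JPX is transcribed from the X-inactivation centre and is known for its role in activating that centre's silencing RNA. It was at 28.0, 26.4 and 27.3 CPM in the controls, at 42.4 and 41.3 CPM after CFIm25 knockdown and at 32.5, 34 and 32.8 CPM after CFIm68 knockdown. The log2 rises were 0.62 ± 0.07 and 0.28 ± 0.07 (edgeR adjusted p = 1.2e-07 and 0.0010), and the second was smaller than the first by 0.34 ± 0.07 (edgeR adjusted p = 0.00082). With overexpression of CFIm25 or CFIm68 the log2 changes were -0.03 and 0.04 (edgeR adjusted p = 0.76 and 0.73). JPX shares 10580 exonic bases on the opposite strand with FTX, which moved the other way in the knockdowns.

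LINC01184 and SPATA3-AS1 rose to a similar extent in both knockdowns. LINC01184 was at 1.65, 2.62 and 2.22 CPM in the controls and between 3.54 and 4.36 CPM in the 5 knockdown libraries (log2 changes 0.89 ± 0.18 and 0.83 ± 0.17, edgeR adjusted p = 0.00020 and 0.00013). SPATA3-AS1 was at 3.35, 3.11 and 3.83 CPM in the controls and between 6.05 and 6.31 CPM in the 5 knockdown libraries (log2 changes 0.85 ± 0.17 and 0.85 ± 0.15, edgeR adjusted p = 0.00012 and 3.1e-05). For both, the difference between the knockdowns did not pass the test (edgeR adjusted p = 0.83 and 0.99). LINC00460, named after its values were seen, had 0.273 to 0.908 CPM in the controls and 1.54 to 2.51 CPM in the 5 knockdown libraries, and met the expression rule only in those 5. LINC01152, a neighbour of SOX9 also named after its values were seen, was at 0.567, 0.492 and 0.444 CPM in the controls and between 2.43 and 2.87 CPM in both knockdowns and in CFIm25 overexpression. Its log2 changes were 2.36 ± 0.26, 2.36 ± 0.25 and 2.39 ± 0.25, given as a description, and it met the rule in those 8 libraries only, so it could not be a member without being high there.

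Most lincRNAs of the fixed microRNA-host list were lower in 3 of the 4 manipulated groups. All 5 members of the microRNA-host list (MIR34AHG, MIR22HG, MIR503HG, LINC00461 and FTX) passed the test as lower after CFIm25 knockdown, 4 of 5 after CFIm68 knockdown and 4 of 5 with CFIm25 overexpression, where 23.2%, 28.1% and 29.1% of all tested genes were lower. MIR503HG met the expression rule only where it was high, and without it 4 of 4, 3 of 4 and 3 of 4 were lower. The median log2 changes of the 5 were -0.82, -0.91 and -0.73. With CFIm68 overexpression MIR34AHG alone passed, as higher, with a list median of -0.01. For all tested genes the medians were 0.00, 0.00, -0.00 and 0.01. The study's title names microRNA biogenesis, and this list was chosen with earlier results of these data known.

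MIR34AHG, the host of miR-34a, a microRNA induced by p53 that restrains the cell cycle, had the most reads of the 5. It was at 37.0, 51.7 and 46.0 CPM in the controls, 18.5 and 15.4 CPM after CFIm25 knockdown, 17.2, 20 and 17.4 CPM after CFIm68 knockdown and 28.4, 26.4 and 26.6 CPM with CFIm25 overexpression. All 8 of these libraries were below the lowest control. The log2 changes were -1.42 ± 0.11, -1.31 ± 0.10 and -0.73 ± 0.10 (edgeR adjusted p = 9.2e-11, 8.4e-12 and 4.4e-07). With CFIm68 overexpression MIR34AHG was at 51.2, 51.2 and 62.9 CPM and overlapped the controls, and its log2 change of 0.29 ± 0.09 (edgeR adjusted p = 0.019) no longer passed without control replicate 1 (0.17, adjusted p = 0.18), without CFIm68 overexpression replicate 3 (0.19, adjusted p = 0.16) or with the median of neighbouring genes removed (0.21, adjusted p = 0.11).

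LINC00461 is a neural lincRNA that holds miR-9-2. It was at 10.4, 11.7 and 9.37 CPM in the controls, 6.49 and 5.54 CPM after CFIm25 knockdown, 6.24, 4.77 and 5.62 CPM after CFIm68 knockdown and 7.21, 5.54 and 6.61 CPM with CFIm25 overexpression. These 8 libraries were below the controls, with log2 changes of -0.82 ± 0.14, -0.91 ± 0.12 and -0.69 ± 0.13 (edgeR adjusted p = 1.8e-05, 4.1e-07 and 3.7e-05). With CFIm68 overexpression its values of 10.4, 9.41 and 11.5 CPM overlapped the controls.

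The other hosts had fewer reads, and some of their calls did not hold when 1 library was left out. Leaving out a CFIm25 knockdown library leaves 1 in that group. MIR503HG, which holds the miR-503 gene and lies beside the miR-424 gene, was at 0.851, 1.69 and 1.11 CPM in the controls. It was at 0.545 and 0.449 CPM after CFIm25 knockdown and at 0.511, 0.370 and 0.566 CPM after CFIm68 knockdown. The log2 changes were -1.31 ± 0.35 and -1.32 ± 0.32, as a description. MIR503HG met the expression rule in 5 libraries, all of them control or CFIm68 overexpression. Its log2 change with CFIm25 overexpression was -0.98 ± 0.32, and -0.66 without control replicate 2. MIR22HG, the host of miR-22, fell by 0.71 ± 0.22 and 0.78 ± 0.21 after CFIm25 knockdown and with CFIm25 overexpression (edgeR adjusted p = 0.0092 and 0.0028). Without CFIm25 knockdown replicate 2 the first was -0.48 (adjusted p = 0.18). FTX, an X-inactivation centre lincRNA with the miR-374, miR-421 and miR-545 genes in its introns, fell by 0.47 ± 0.20 and 0.48 ± 0.18 in the knockdowns (edgeR adjusted p = 0.049 and 0.024). Its adjusted p rose to between 0.068 and 0.23 without any 1 of control replicates 1 and 2 and CFIm25 knockdown replicates 1 and 2 in the first comparison, and to 0.066, 0.12 and 0.061 without control replicate 1, control replicate 2 or CFIm68 knockdown replicate 1 in the second, and with DESeq2 it was 0.11 and 0.057. MUC20-OT1 and AC016205.1, which also hold microRNA genes but are on no fixed list, did not pass in either knockdown. AC016205.1 rose from 3.74, 4.04 and 3.44 CPM to 7.76, 7.75 and 7.77 CPM with CFIm25 overexpression (log2 change 1.05 ± 0.16, edgeR adjusted p = 2.3e-06).

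PURPL is induced by p53 and is known for restraining p53 levels. It was at 4.14, 4.64 and 3.55 CPM in the controls, 1.36 and 1.5 CPM after CFIm25 knockdown and 1.67, 2.10 and 1.46 CPM after CFIm68 knockdown. It was lowest with CFIm25 overexpression, at 0.643, 0.962 and 0.638 CPM, and highest with CFIm68 overexpression, at 7.73, 7.68 and 6.77 CPM. PURPL did not overlap the controls in any group, and its log2 changes were -1.51 ± 0.20, -1.24 ± 0.17, -2.47 ± 0.22 and 0.85 ± 0.15 (edgeR adjusted p = 5.1e-07, 6.0e-07, 2.2e-10 and 6.0e-05). Among the 4 members of the p53-induced list, which shares MIR34AHG and MIR22HG with the host list, 3, 2 and 3 were lower in CFIm25 knockdown, CFIm68 knockdown and CFIm25 overexpression, and 2 were higher with CFIm68 overexpression. Of all tested genes 23.2%, 28.1% and 29.1% were lower and 14.5% higher in these comparisons. The remaining one, TP53TG1, passed in none of these 4 comparisons (log2 changes 0.03, -0.25, -0.17 and -0.01), and without control replicate 2 it passed as lower after CFIm68 knockdown (-0.40, adjusted p = 0.028).

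With CFIm25 overexpression 2 of the 3 lincRNAs on the small nucleolar RNA host list were higher and 1 lower, where 27.7% of all tested genes were higher and 29.1% lower. SNHG15, the host of SNORA9, was at 61.1, 68.9 and 74.1 CPM in the controls and at 100.03, 97.4 and 111 CPM with CFIm25 overexpression, with no overlap (log2 change 0.60 ± 0.07, edgeR adjusted p = 1.1e-08). SNHG8, the host of SNORA24, was at 20.3, 19 and 19.9 CPM in the controls and at 35.3, 31.3 and 40.5 CPM with CFIm25 overexpression (0.86 ± 0.09, edgeR adjusted p = 4.8e-09). SNHG9, the host of SNORA78, went the other way, from 9.13, 7.43 and 11.5 CPM to 4.68, 5.60 and 5.97 CPM (-0.80 ± 0.14, edgeR adjusted p = 2.2e-05). SNHG9 lies among genes that moved too, and with the median of its 50 neighbours removed its change was -0.39 (adjusted p = 0.022). Of the 3 hosts on the list, 2 were higher after CFIm25 knockdown (24.4% of all tested genes were), 1 after CFIm68 knockdown (28.3%) and none with CFIm68 overexpression (14.5%). The rises after CFIm25 knockdown, 0.27 for SNHG15 and 0.40 for SNHG8 on the log2 scale, no longer passed without CFIm25 knockdown replicate 1 (0.22 and 0.24, adjusted p = 0.062 and 0.092).

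EPB41L4A-AS1, which holds SNORA13, was at 23.8, 22.6 and 21.2 CPM in the controls and at 39.5, 43.6 and 51 CPM with CFIm25 overexpression. The rise of 0.98 ± 0.09 on the log2 scale (edgeR adjusted p = 6.6e-10) passed the test, while its log2 changes of 0.15, -0.13 and 0.14 in the other groups did not. EPB41L4A-AS1 shares 1659 exonic bases with EPB41L4A on the other strand. Other members with non-overlapping rises in CFIm25 overexpression were LINC00662 (16.6, 16.0 and 17.8 to 31.8, 30.3 and 34.6 CPM), LINC00909 (16.6, 19 and 17.9 to 34.3, 33.4 and 33.6 CPM) and AC026250.1 (2.89, 2.24 and 2.61 to 5.88, 6.45 and 6.61 CPM). Their log2 changes were 0.94 ± 0.08, 0.92 ± 0.08 and 1.28 ± 0.15 (edgeR adjusted p = 1.7e-10, 1.8e-10 and 3.7e-08). LINC02381 had the opposite change, from 27.5, 22.8 and 27.7 CPM to 15, 18.8 and 21.2 CPM (log2 change -0.52 ± 0.10, edgeR adjusted p = 0.00011).

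Of the 5 members of the list with a described cytoplasmic or decay role (CRNDE, MIR22HG, EPB41L4A-AS1, LINC00665 and LINC00467), 4 were higher and MIR22HG lower with CFIm25 overexpression, where 27.7% of all tested genes were higher and 29.1% lower. In CFIm25 knockdown LINC00665 and LINC00467 were higher and MIR22HG lower, where the LINC00467 value of 0.28 became 0.08 (adjusted p = 0.66) without CFIm25 knockdown replicate 1. In CFIm68 knockdown LINC00665 was higher, and in CFIm68 overexpression CRNDE was higher and LINC00665 lower. CRNDE, a lincRNA first described in colorectal tumours, was at 41.4, 45.4 and 43.4 CPM in the controls and reached 58.9, 53.6 and 49.9 CPM with CFIm25 and 61.7, 55.0 and 55.0 CPM with CFIm68 overexpression (log2 changes 0.32 ± 0.08 and 0.40 ± 0.08, edgeR adjusted p = 0.0010 and 0.00036). LINC00467 rose from 8.85, 11 and 10 CPM to 16.4, 17 and 16.6 CPM with CFIm25 overexpression (0.74 ± 0.10, edgeR adjusted p = 8.7e-07). The 3 members of the nuclear or chromatin list were JPX, FTX and FENDRR. FENDRR, a developmental lincRNA beside FOXF1, passed the test with CFIm68 overexpression, from 1.65, 2.24 and 1.28 CPM to 3.38, 3.84 and 2.63 CPM (0.94 ± 0.24, edgeR adjusted p = 0.0037). No gene of the pluripotency and embryonic list met the expression rule.

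CFIm68 overexpression lowered 9 members, and 4 of these lie on chromosome 19, which holds 10 of the 104. LINC00665 was at 13.2, 14.6 and 13.8 CPM in the controls, at 4.35, 3.34 and 3.64 CPM with CFIm68 overexpression and at 42.2, 41.7 and 51.4 CPM with CFIm25 overexpression. The 3 groups were far apart, with log2 changes of -1.88 ± 0.13 and 1.70 ± 0.09 (edgeR adjusted p = 3.4e-12 and 2.3e-15). LINC00665 was also higher in both knockdowns, by 0.67 ± 0.10 and 0.48 ± 0.09 (edgeR adjusted p = 3.3e-06 and 5.3e-05). LINC01224 and ZNF667-AS1, both named after their values were seen, were nearly lost with CFIm68 overexpression. LINC01224 went from 1.25, 1.26 and 0.776 CPM to 0.0650, 0.0557 and 0.125 CPM, and ZNF667-AS1, which starts inside the zinc finger gene ZNF667 on the other strand, from 0.908, 0.819 and 1.05 CPM to 0.0650, 0.111 and 0.188 CPM. Their log2 changes were -3.66 ± 0.54 and -2.87 ± 0.48, from a few reads per library. Neither met the expression rule in a CFIm68 overexpression library, so these values are a description.

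The fourth, LINC01535, fell from 9.42, 9.07 and 8.59 CPM to 4.87, 6.24 and 6.46 CPM with CFIm68 overexpression (log2 change -0.62 ± 0.13, edgeR adjusted p = 0.00070). With CFIm25 overexpression it rose to 13.7, 12.2 and 14.2 CPM (0.57 ± 0.11, edgeR adjusted p = 0.00011), which became 0.25 (adjusted p = 0.068) with the median of its neighbours removed. Over all 867 tested genes of chromosome 19, 19.95% were lower and 8.54% higher with CFIm68 overexpression, with a median log2 change of -0.04. With the median of 50 neighbouring genes removed, the 4 falls were -1.88 for LINC00665, -3.64 for LINC01224, -2.77 for ZNF667-AS1 and -0.61 for LINC01535.

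**Figure D3:**
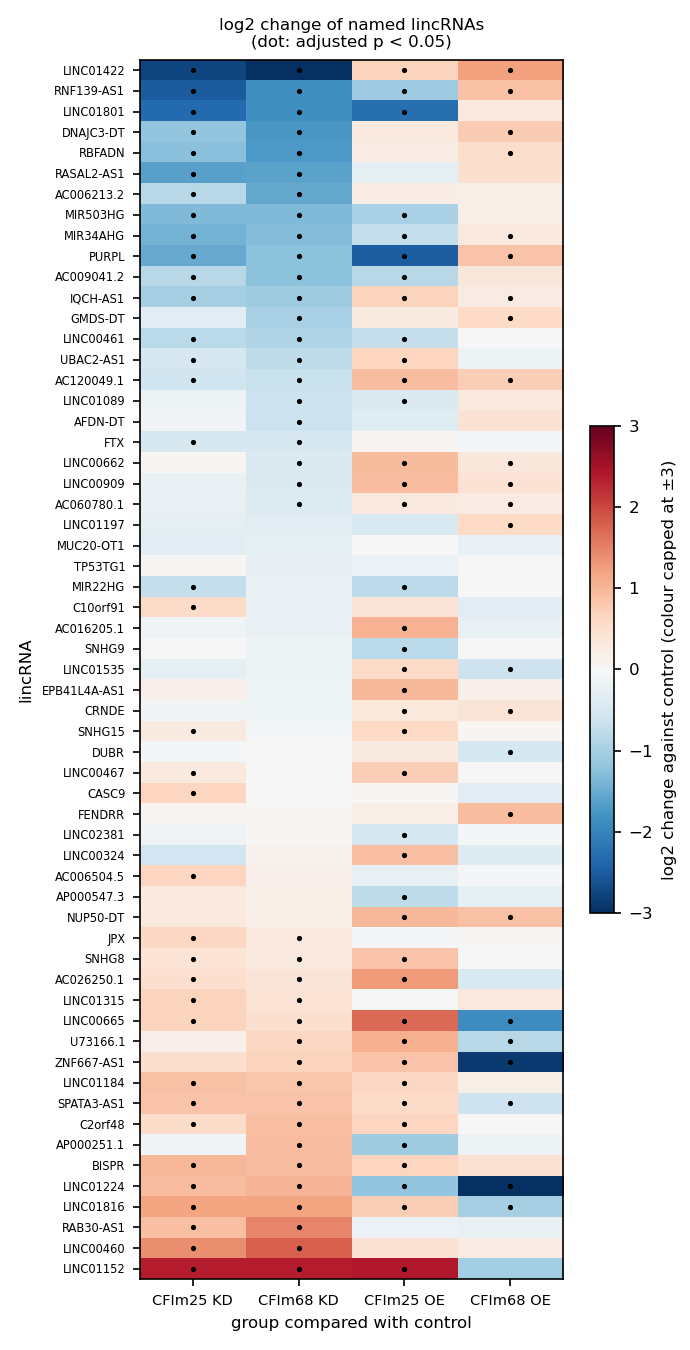
log2 change against control (colour, blue lower and red higher, capped at 3 in either direction) of the named lincRNAs in rows, for the 4 manipulated groups in columns, ordered by the change after CFIm68 knockdown; a dot marks an edgeR adjusted p under 0.05. The 2 knockdown columns and the 2 overexpression columns share the same 3 control libraries. LINC01422, DNAJC3-DT and RBFADN stand at the blue end of both knockdowns and LINC01152, LINC00460 and RAB30-AS1 at the red end.

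Fewer lincRNAs passed the test between the 2 knockdowns than between the 2 overexpressions. Over all read levels, each share was near that of all tested genes. Between CFIm68 and CFIm25 knockdown 22 members passed the test, 5 higher and 17 lower with CFIm68 (21.2%, against 24.2% of all tested genes), and without CFIm25 knockdown replicate 1 only 9 did. LINC00662 differed by -0.49 ± 0.09 (edgeR adjusted p = 0.00022), with 19.3 and 15.8 CPM after CFIm25 and 12.6, 11.8 and 12.8 CPM after CFIm68 knockdown. C10orf91 differed by -0.80 ± 0.18 (edgeR adjusted p = 0.0012), with 4.04 and 4.13 CPM against 2.69, 2.51 and 1.82 CPM.

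Between CFIm68 and CFIm25 overexpression 65 members passed, 26 higher and 39 lower with CFIm68 (62.5%, against 63.7% of all tested genes, of which 32.9% were higher and 30.8% lower). LINC00665 differed by -3.58 ± 0.11 (edgeR adjusted p = 4.3e-21) and PURPL by 3.31 ± 0.20 (edgeR adjusted p = 3.1e-14), in opposite directions. U73166.1 was at 3.63, 4.70 and 2.72 CPM in the controls, 7.64, 7.41 and 8.17 CPM with CFIm25 and 1.95, 2.17 and 2.07 CPM with CFIm68 overexpression, a difference of -1.90 ± 0.16 (edgeR adjusted p = 5.9e-11). LINC01152, which met the rule in no CFIm68 overexpression library, differed by -3.41 ± 0.31 as a description, from 2.43 to 2.87 CPM with CFIm25 to 0.125 to 0.390 CPM with CFIm68 overexpression.

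Each knockdown was also set against overexpression of the same subunit, which uses no control library, and the 2 comparisons share no library. Against CFIm25 overexpression, CFIm25 knockdown had 15 members higher and 40 lower (52.9%, against 56.1% of all tested genes, of which 28.6% were higher and 27.5% lower). Against CFIm68 overexpression, CFIm68 knockdown had 24 higher and 42 lower (63.5%, against 67.1%, of which 33.7% were higher and 33.5% lower). Both comparisons thus had more members below than above, while all tested genes together were nearly evenly split. The split differed by read level. Against CFIm25 overexpression, all tested genes under 2 CPM had 200 higher and 339 lower, and from 10 CPM up 2814 and 2389. The members had 5 and 12, and 3 and 13. Against CFIm68 overexpression, all tested genes had 490 and 352 under 2 CPM, and 2891 and 3080 from 10 CPM up. The members had 13 and 13, and 3 and 12.

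In both comparisons 39 members passed the test, 29 in the same direction (23 lower and 6 higher in knockdown) and 10 in opposite directions. The 29 are 27.9% of the members, and 29.5% of all tested genes passed in the same direction in both. The share with both directions pooled is thus near the background, but the split by direction is not. Of all 12080 tested genes 1726 were lower and 1832 higher in both, against 23 and 6 of the members. That difference was not tested. Among those lower in both knockdowns than in the matching overexpression were LINC01422 (-3.43 and -4.35), RNF139-AS1 (-1.41 and -2.72), DNAJC3-DT (-1.48 and -2.51), RBFADN (-1.47 and -2.25) and IQCH-AS1 (-1.66 and -1.31). Higher in both were LINC01224 (2.10 and 4.68), RAB30-AS1 (1.07 and 1.68) and JPX (0.65 and 0.24), of which the second JPX value did not pass without CFIm68 overexpression replicate 2 (0.17, adjusted p = 0.051). LINC01422 and RNF139-AS1 met the expression rule in no knockdown library, and LINC01224 in no CFIm68 overexpression library. The rule favoured such differences, so their values are a description, and they are also counted among the 29. LINC00665 (-1.03 and 2.37) and PURPL (0.96 and -2.09) were among the 10 with opposite directions, and the first PURPL value was 0.88 (adjusted p = 0.053) without CFIm25 knockdown replicate 2. Across the 104 genes, which are not independent replicates, the 2 log2 changes had a Pearson r of 0.45, and across all 12080 tested genes an r of 0.29.

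**Figure D4:**
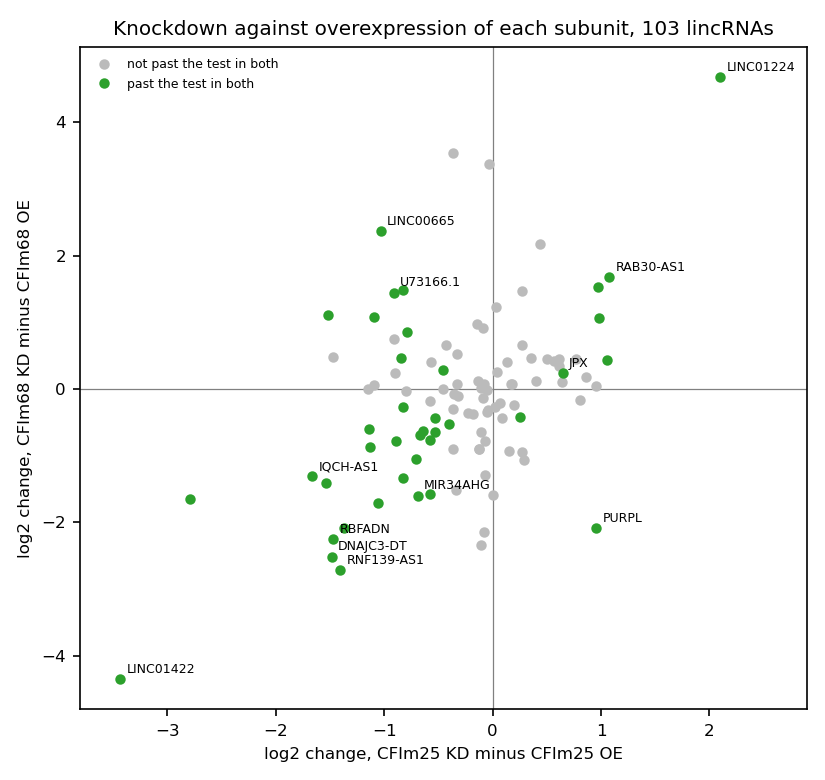
log2 change of 103 lincRNAs in CFIm25 knockdown minus CFIm25 overexpression (horizontal axis) and in CFIm68 knockdown minus CFIm68 overexpression (vertical axis); green points passed the test in both. The lower left holds LINC01422, RNF139-AS1, DNAJC3-DT, RBFADN and IQCH-AS1, the upper right LINC01224 and RAB30-AS1, and LINC00665 and PURPL lie in the other 2 corners.

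A lincRNA that starts head to head with a coding gene can share its promoter region, so each of 33 such members with a tested partner was set beside that partner. After CFIm68 knockdown both genes passed the test in 8 pairs, 3 in the same and 5 in opposite directions, and after CFIm25 knockdown in 7 pairs, 4 in the same and 3 in opposite directions. Of the 33 pairs, 16 lincRNAs and 22 partners passed after CFIm68 knockdown, and 14 and 16 after CFIm25 knockdown. With CFIm25 overexpression both passed in 9 pairs, each in the same direction, and with CFIm68 overexpression in 4 pairs, again each in the same direction. Here 17 lincRNAs and 16 partners passed with CFIm25 overexpression, and 11 and 9 with CFIm68 overexpression. Among the 33 pairs, ZNF667-AS1 and MIR22HG start inside their partners ZNF667 and WDR81. IQCH-AS1, LINC00909 and AC060780.1 also start inside their partners. So do PSMG3-AS1, MAPKAPK5-AS1 and AC090061.1, named here for their position alone. How the counts treated strand is not known, so the reads of all these pairs may be mixed. SOX8, the partner of AC009041.2, had a mean of 0.377 CPM. Whether the knockdowns and overexpressions differ in this split was not tested, and all 4 share the controls. Whether both genes of a pair passed more often than unpaired genes would was not tested either. As a description across the 33 pairs, Pearson's r between the 2 log2 changes was 0.36 and 0.26 in CFIm25 and CFIm68 knockdown and 0.66 and 0.84 in the overexpressions. Without the most extreme pair of each they were 0.26, 0.12, 0.61 and 0.39, the pair being BISPR in the knockdowns, AC009041.2 with CFIm25 and ZNF667-AS1 with CFIm68 overexpression.

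In all 5 opposite pairs after CFIm68 knockdown the lincRNA fell while the coding gene rose. After CFIm25 knockdown this held for 2 of 3, and FLVCR1-DT rose by 0.62 while FLVCR1, a heme exporter gene, fell by 0.19 on the log2 scale. DNAJC3 rose by 0.25 ± 0.08 and 0.80 ± 0.08 on the log2 scale in the CFIm25 and CFIm68 knockdowns (edgeR adjusted p = 0.017 and 5.4e-10), where DNAJC3-DT fell by 1.19 and 1.75. RASAL2-AS1, chosen after its values were seen, fell from 2.04, 2.24 and 2.05 CPM to 0.953 and 0.479 CPM after CFIm25 knockdown and to 0.580, 0.700 and 0.809 CPM after CFIm68 knockdown (log2 changes -1.64 ± 0.27 and -1.61 ± 0.24). It met the expression rule in no knockdown library, so these values are a description. Its partner RASAL2, a Ras GTPase-activating protein gene, rose by 0.24 ± 0.07 and 0.39 ± 0.06 (edgeR adjusted p = 0.0046 and 4.9e-06). After CFIm68 knockdown GMDS-DT fell by 0.97 ± 0.23 and GMDS, an enzyme gene of GDP-fucose synthesis, rose by 0.20 ± 0.06 (edgeR adjusted p = 0.00060 and 0.0050). UBAC2-AS1 fell by 0.75 ± 0.15 and UBAC2 rose by 0.20 ± 0.07 in the same comparison (edgeR adjusted p = 7.5e-05 and 0.022).

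Other pairs rose or fell together. BISPR starts 38 bases from BST2, the gene of the interferon-induced antiviral protein tetherin. BISPR, named after its values were seen, was at 1.47, 0.546 and 1.66 CPM in the controls and at 2.68 and 2.31, and 1.94, 2.47 and 2.63 CPM in the knockdowns (log2 changes 1.01 ± 0.27 and 0.93 ± 0.25, edgeR adjusted p = 0.0028 and 0.0025). BST2 rose by 1.81 ± 0.14 and 2.06 ± 0.13 (edgeR adjusted p = 5.7e-11 and 1.6e-13). With CFIm68 overexpression ZNF667 fell by 5.13 ± 0.27 beside the loss of ZNF667-AS1, and FOXF1 rose by 1.68 ± 0.24 beside FENDRR (edgeR adjusted p = 5.4e-15 and 5.7e-06). ZNF667-AS1 and ZNF667 were both higher after CFIm68 knockdown (0.67 and 0.78), where the ZNF667-AS1 value did not pass without control replicate 1 or 2 or CFIm68 knockdown replicate 1 (0.59 to 0.66). In some pairs 1 gene passed the test and the other did not, and the difference between them was not tested. TP53TG1 did not pass after CFIm68 knockdown while its partner CROT rose by 0.95 (edgeR adjusted p = 6.3e-05), and RAB30-AS1 rose by 1.46 while RAB30, at a mean of 0.807 CPM, had a log2 change of 0.57 (edgeR adjusted p = 0.096). Against CFIm68 overexpression both were higher after CFIm68 knockdown, RAB30-AS1 by 1.68 and RAB30 by 1.24 (edgeR adjusted p = 5.4e-14 and 0.0019).

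**Figure D5:**
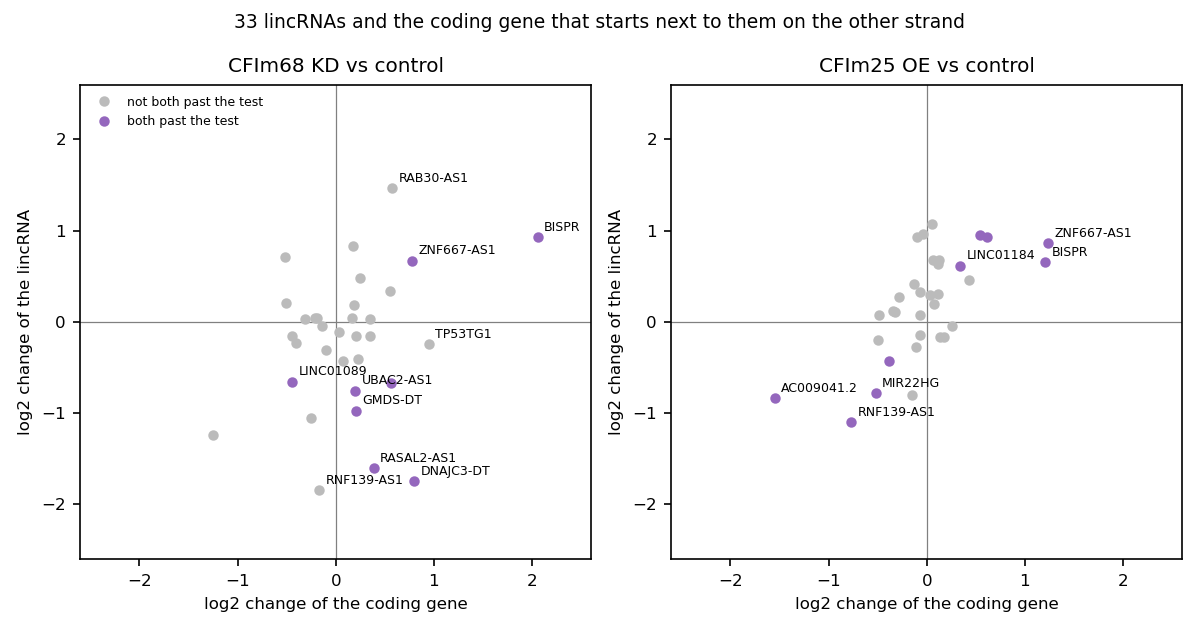
log2 change of 33 lincRNAs (vertical axis) against that of the coding gene that starts next to them on the other strand (horizontal axis), after CFIm68 knockdown (left) and with CFIm25 overexpression (right), both against control; purple pairs passed the test in both genes. On the left 5 of the 8 purple pairs lie at lower right, among them DNAJC3-DT and RASAL2-AS1; on the right all 9 lie at upper right or lower left.

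The CFIm motif was searched as TGTA on the sense strand in the last 100 bases of the longest annotated transcript of each gene. It was found in 52 of 104 members (50%), in 42.3% of all lincRNA genes of the table and in 55.0% of tested protein-coding genes. With windows of 50 and 200 bases the members' share was 26.0% and 66.3%. At least 2 copies were found in 13.5%, 12.1% and 21.1%. TACA, the same letters on the other strand, was found in 32.7% of the members. The poly(A) signal AATAAA was found in 57.7% of the members, 54.5% of all lincRNA genes and 64.9% of the protein-coding genes.

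Changes in level were set beside the number of motifs as a description. After CFIm25 knockdown the median log2 change was -0.01, 0.03 and 0.00 for members with 0, 1 and at least 2 copies of TGTA (52, 38 and 14 members), and after CFIm68 knockdown -0.01, -0.12 and -0.19. With CFIm25 overexpression the medians were 0.30, 0.28 and -0.05. In these 3 classes 17, 16 and 4 members were higher and 12, 3 and 2 lower, where 27.7% of all tested genes were higher and 29.1% lower. In CFIm25 knockdown against CFIm25 overexpression the medians were -0.08, -0.45 and -0.07. There 7, 6 and 2 members were higher and 16, 21 and 3 lower, where 28.6% of all tested genes were higher and 27.5% lower. In CFIm68 knockdown against CFIm68 overexpression the medians were -0.01, -0.35 and -0.00. The members with 1 copy had the lowest median in both, and those with more copies were near those with none. RAB30-AS1, which rose in both knockdowns, has 3 copies, DNAJC3-DT and LINC01422, which fell, have 1 each, and IQCH-AS1, which also fell, has none. These annotated ends need not be the ends used in HEK 293 cells, and the counts give no position within a gene. No test was made of these medians.

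Genes of proteins that bind, process or degrade noncoding RNA moved in both directions in the knockdowns. Of 33 tested paraspeckle proteins, a list that includes NUDT21 and CPSF6 themselves, 8 were higher and 11 lower after CFIm25 knockdown and 6 higher and 15 lower after CFIm68 knockdown. Beside the targeted genes, TAF15 rose by 0.62 ± 0.05 in the first and HNRNPR fell by 0.79 ± 0.05 in the second (edgeR adjusted p = 2.0e-10 and 8.3e-13), and both encode RNA-binding proteins. Each moved the same way in the other knockdown, TAF15 by 0.34 and HNRNPR by -0.65. CELF6, named after its values were seen, fell by 1.32 ± 0.25 and 1.06 ± 0.22 in the CFIm25 and CFIm68 knockdowns (edgeR adjusted p = 0.00010 and 0.00017), from a mean of 2.55 CPM. The median size of the log2 change in this list was 0.28 in both knockdowns, against 0.23 and 0.25 for all tested genes. Of 23 genes of the nuclear exosome and its adaptors, 5 were higher and 5 lower after CFIm25 and 5 higher and 8 lower after CFIm68 knockdown. The catalytic exosome subunit gene EXOSC10 fell by 0.27 ± 0.05 and 0.28 ± 0.04, and EXOSC5 fell by 0.44 ± 0.07 after CFIm68 knockdown (edgeR adjusted p = 6.7e-05, 4.0e-06 and 5.3e-06). NCBP3, also named after its values were seen, fell by 1.61 ± 0.36 after CFIm68 knockdown, from a mean of 0.873 to 0.281 CPM (edgeR adjusted p = 0.00042).

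Of 17 nonsense-mediated decay factors, 5 were higher and 4 lower after CFIm25 knockdown and 4 higher and 5 lower after CFIm68 knockdown. SMG5 had the smallest p in both, with falls of 0.47 ± 0.06 and 0.58 ± 0.05 (edgeR adjusted p = 2.3e-07 and 1.7e-10). Of 14 Integrator subunits, which cleave many noncoding transcripts, 2 were higher and 3 lower in each knockdown, and INTS3 fell by 0.30 ± 0.06 and 0.22 ± 0.05 (edgeR adjusted p = 7.5e-05 and 0.00050). The shares called in these lists can be read against 47.6% and 56.4% of all tested genes. Their part in the lincRNA changes was not tested.

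In 15 of the 104 members (14.4%, against 7.44% of all tested genes) none of the 8 comparisons passed the test. TP53TG1 and MUC20-OT1 are among them, with 3.65 to 5.39 CPM and 0.823 to 1.86 CPM over the 14 libraries. A p above the limit does not show that these levels were equal.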

How the data were processed

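RNA of 14 HEK 293 libraries was sequenced from a stranded mRNA kit, per the labels' protocols. The authors deposited 1 table of raw read counts per Ensembl gene. The submitters' processing notes name cutadapt 1.16, STAR 2.7.1a and hg38; the sources used here do not give how reads were assigned to genes, on which annotation or with what strand setting. Gene types, positions and transcripts came from GENCODE 29 and microRNAs from RefSeq. Counts were tested with edgeR 4.0.16 (R 4.3.3): quasi-likelihood test, TMM factors, filterByExpr (minimum count 10, minimum total 15), all 14 libraries with 1 coefficient per group, and Benjamini-Hochberg adjustment over 12080 genes at a threshold of 0.05. The fit was tested on simulated data. Printed CPM are TMM-scaled, errors of log2 changes are SE, and the depth was 15.8 to 33.9 reads per CPM. Alternatives were RLE factors, other filters, DESeq2 1.42.0, limma-voom 3.58.1, a replicate block, the compared groups alone, removal of the median of 50 neighbouring genes, and leaving out each library. Python 3.11.15 drew summaries and figures. Members and lists were chosen with earlier results of these data known. lincRNAs were named if on a fixed list, among the 10 with most reads, or among the 6 largest non-overlapping changes in each direction of a comparison with a mean of at least 2 CPM; others are said to be chosen after their values were seen. From the protein lists, genes among the 3 smallest p-values of each knockdown were named.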

Additional observations from a re-analysis of the deposited data

Results flagged for a closer look

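Differences between the subunits under the same manipulation were tested directly. Between the knockdowns of CFIm68 and CFIm25, 22 lincRNAs differed, and between the overexpressions 65 did. In 9 lincRNAs the log2 changes against control passed the test in opposite directions in the 2 overexpression groups and the difference itself passed too. The share of all tested genes that did so was not computed, so 9 cannot be read as many or few. Each value given is CFIm68 minus CFIm25 overexpression. LINC00665 differed by -3.58, ZNF667-AS1 by -3.73, U73166.1 by -1.90, LINC01816 by -1.73, SPATA3-AS1 by -1.19 and LINC01535 by -1.19, each lower with CFIm68. PURPL differed by 3.31, RNF139-AS1 by 1.97 and MIR34AHG by 1.02, each higher with CFIm68. For MIR34AHG, SPATA3-AS1 and LINC01816 the change with CFIm68 overexpression against control did not pass under each alternative. The change with CFIm25 overexpression did not pass for LINC01816 without control replicate 1 or 3 or CFIm25 overexpression replicate 3 (edgeR adjusted p = 0.084, 0.095 and 0.16), or for LINC01535 with the median of neighbouring genes removed (adjusted p = 0.068). ZNF667-AS1 and RNF139-AS1 met the expression rule only through groups where they were high.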

How the results depend on the processing

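The number of lincRNAs called stayed within 1.5 times its value under each alternative run, with 1 exception. Between the 2 knockdowns it was 22 and became 9 (3 higher and 6 lower) without CFIm25 knockdown replicate 1, and the cause was not tested. Leaving out 1 library at a time gave 35 to 45 after CFIm25 knockdown, 44 to 51 after CFIm68 knockdown, 51 to 54 with CFIm25 and 22 to 29 with CFIm68 overexpression, 9 to 19 between the knockdowns and 56 to 63 between the overexpressions. Deviations of libraries from their group mean were correlated between groups. Pearson's r was -0.063 to 0.171 for the same replicate number and -0.184 to 0.084 for unlike numbers. Between the 2 overexpressions the same-number values were 0.171, 0.024 and 0.113. The replicate block gave 45, 51, 57 and 30 calls against control, and 22, 65, 54 and 66 in the other comparisons. DESeq2 gave 38, 45, 48 and 27 against control. With the median of 50 neighbouring genes removed, 3 values changed sign and passed the test: SNHG9 was 0.31 after CFIm68 knockdown and 0.45 against CFIm68 overexpression, and AC060780.1 was 0.20 between the overexpressions. Of 281 values of named lincRNAs past the threshold, 210 passed under every alternative. A minimum of 0.5 or 2 CPM would give 133 or 78 members. Of the members, 48 average under 2 CPM, where a library holds few reads and smaller changes were not detectable.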
